A study of Saccharomyces cerevisiae with 268 samples.

Results

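Copper uptake and copper buffering in budding yeast, Saccharomyces cerevisiae, were followed through 7 genes across 268 strains. Each strain is labelled as the deletion of 1 transcription factor or related regulator. The genes were chosen by name, 3 for uptake (CTR1, YPR124W; FRE1, YLR214W; FRE7, YOL152W) and 4 for buffering (CUP1-1, YHR053C; CUP1-2, YHR055C; CRS5, YOR031W; SOD1, YJR104C). They are 7 of the 5615 genes that had a value in at least 80% of strains, and all 7 passed that filter. Each value set total RNA of a mid-log deletion strain (Cy5) against wild type RNA, also from mid-log growth (Cy3). Scores below 0 thus stand for less RNA in the strain labelled as a deletion. The labels give 1 column for each deletion and no replicate, and the sources used here do not give the strain background or the growth medium. They do not state the score's unit or log base either, so differences are in score units and no fold changes are given.

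Copper enters yeast as the reduced ion. The surface reductases Fre1 and Fre7 reduce it and the high-affinity transporter Ctr1 carries it in, and when copper is scarce the copper-sensing activator Mac1 turns on all of these genes. When copper is plentiful, another sensor, Cup2 (also called Ace1), turns on genes whose products hold copper: the metallothioneins encoded by CUP1 and CRS5, and SOD1, the copper- and zinc-dependent superoxide dismutase. CUP1 lies in a tandem repeat, and the reference lists a pair of copies, CUP1-1 and CUP1-2, of equal sequence length. FRE1 is also known as a target of the iron regulator Aft1.

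Some properties of the whole table bear on these genes. Within each column the score could rise or fall with gene length: the Spearman correlation between score and gene length ran from -0.58 to 0.36 over the 268 columns. For ABF1, GCR1, HSF1, MCM1, RAP1 and REB1, 6 columns in all, the values were written with fewer digits than elsewhere. These too are labelled as deletions, but not every own gene was low. The own genes scored -2.04 (GCR1), -1.70 (RAP1), -1.09 (REB1), -0.84 (HSF1), 0.80 (ABF1) and 5.04 (MCM1). In 19 columns at least 2 of the genes MET17, STE3, MF(ALPHA)1 and MF(ALPHA)2, which differ between common laboratory strains or mating types, stood at or below -3. In 8 columns a whole chromosome was displaced by more than 0.8, but on the 5 chromosomes that carry the copper genes no column was displaced that far. The largest displacement on these was 0.785, of chromosome XV, which carries FRE7 and CRS5, in the MCM1 column. Chromosome VIII, which carries CUP1, was the most displaced one in SNF2 (-0.56), SNF5 (-0.53) and TUP1 (-0.42), among other columns. Where a strain named for a result has one of these properties, this is said below for the results that turn on it, and columns are called by the label of the deleted gene even where that gene's own score was not low.

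CTR1, the transporter gene, varied little. Its score ran from -1.92 to 3.17 with a median of 0.33 over the 242 strains with a value, and its SD of 0.65 was larger than that of 36.8% of all genes. It was highest without RTT107 (3.17), a DNA damage response gene, and without PUT3 (2.92), the activator of proline use. It was lowest without ARO80 (-1.92), an activator of aromatic amino acid breakdown, and without MIG1 (-1.90), the glucose repressor. These 4 strains were the only ones more than 2 from the CTR1 median, and the columns of RTT107, PUT3 and ARO80 were among the 19 with low strain markers. The next strains were ACA1 (2.17, also with low markers), TUP1 (1.94) and MGA2 (1.91) on the high side, and GCN4 (-1.53), SMP1 (-1.34) and SNF11 (-1.22) on the low side. CTR1 had no value in 26 columns, and these columns lacked a median of 99 features, against 42.5 in the others.

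FRE1, the main surface reductase gene, varied far more. Its score ran from -6.33 to 2.86 with a median of -1.24 over 268 strains, and it was below 0 in 75.4% of them. Its SD of 1.80 exceeded that of 98.5% of genes, where the median gene had an SD of 0.72. FRE1 lay more than 2 below its own median in 52 strains and more than 2 above it in 24. The highest strain was RIM101 (2.86), lacking a repressor that acts in the alkaline response, and stood well clear of STP1 (1.38), MGA1 (1.35), URC2 (1.30) and DAL82 (1.29). The lowest strains were MCM1 (-6.33), SNF2 (-6.12), SWI3 (-5.83), SPT20 (-5.76) and SNF6 (-5.57), of which 3 lack a subunit of the nucleosome remodeller SWI/SNF. In the SWI3 and SPT20 columns a chromosome without FRE1 was displaced. The MCM1 column was one of those with few digits, and MCM1's own score there was 5.04, above all 267 other strains.

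FRE7, a second reductase gene, spanned -4.68 to 3.13 around a median of -1.23 and was below 0 in 85.8% of 267 strains. It was more than 2 below its median in 8 strains and more than 2 above it in 18. The highest scores were in CST6 (3.13), RIM101 (2.70), SNF6 (2.47), SUM1 (2.27) and HST1 (2.25). Sum1 and the deacetylase Hst1 belong to the same repressor complex, and the columns labelled for them lay next to each other in this order. For their own genes, 45 strains were lower than the SUM1 column and 96 lower than the CST6 column. The lowest scores were in BDF2 (-4.68), which lacks a bromodomain protein, and in SPT4 (-4.05), MCM1 (-3.76), RTG1 (-3.73) and SNT2 (-3.62). RIM101 was the one strain among the 5 highest for both FRE1 and FRE7, and its CTR1 score was 0.49.

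**Figure D1:**
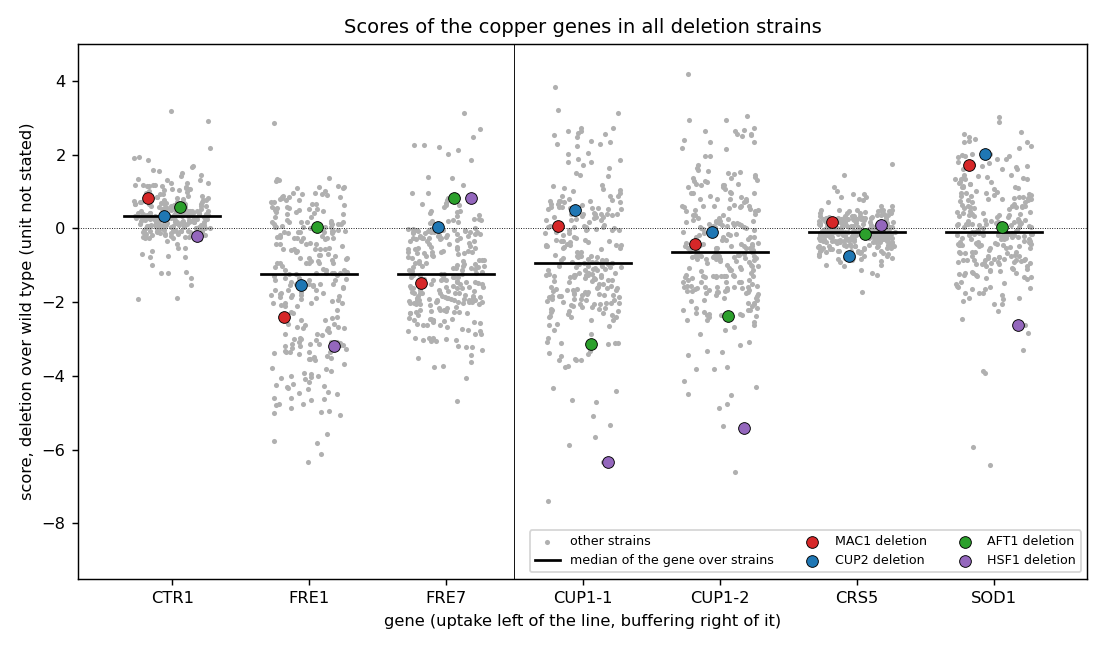
Scores of the 7 copper genes, deletion strain over wild type, with 1 point per strain and a bar at each gene's median. FRE1 and both CUP1 copies spread over about the whole axis, from -6.33 to 2.86 for FRE1, while CTR1 and CRS5 stay close to their medians; coloured points mark 4 named regulator deletions.

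Among the buffering genes, the metallothionein copies moved over the widest range. CUP1-1 spanned -7.38 to 3.84 around a median of -0.94, and CUP1-2 spanned -6.61 to 4.19 around -0.64. CUP1-1 was more than 2 below its median in 26 strains and above it in 31, and CUP1-2 in 20 and 30. Both copies were lowest without SIN3 (-7.38 and -6.61), the scaffold of the Rpd3 deacetylase complexes, followed in each case by the column labelled HSF1 (-6.33 and -5.42). Both were highest without HST1 (3.84 and 4.19) and next highest without RPN4 (3.22 and 3.04), the activator of proteasome genes.

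The other low strains for CUP1-1 were SRB2 (-5.86), UME1 (-5.65) and TUP1 (-5.33), and those for CUP1-2 were TUP1 (-5.37), SWI3 (-4.88) and SNF5 (-4.77). SRB2 parted the copies, since CUP1-2 stood at -0.73 there. The other high strains were SPT4 (3.13), DAT1 (2.73) and CIN5 (2.71) for CUP1-1, and STB5 (2.94), THI2 (2.93) and CIN5 (2.71) for CUP1-2. The columns of CIN5 and STB5 were among those with low strain markers, and those of SPT4 and CIN5 had length trends of -0.56 and -0.45. With the length trend removed CUP1-1 stood 2.11 above its median in SPT4, where it had stood 4.06 above. In the SIN3 column chromosome V, which does not carry CUP1, was displaced.

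The 2 copies cannot be read as separate genes, because they share their sequence and no source used here says how the probes told them apart. Over 266 strains their scores had a Spearman correlation of 0.90. Their difference had an SD of 0.73, ran from -5.12 to 2.78 and was larger than 1 in 35 strains. They were low together in 19 strains and high together in 23, and in no strain was one far below its median and the other far above. YHR054C, the reading frame listed between the copies, had a correlation of 0.25 with CUP1-1, but it stood at 4.93 without HST1, its highest score, and at -3.03 without SIN3. Genes listed on either side of the copies followed them less: the correlation with CUP1-1 was -0.19 for CIC1, 0.08 for RSC30 and 0.08 for CPR2.

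CRS5, the other metallothionein gene, hardly moved. Its scores spanned -1.72 to 1.74 around a median of -0.10, no strain lay more than 2 from that median, and its SD of 0.44 was larger than that of 0.87% of genes. Its highest scores were in MSN4 (1.74), TUP1 (1.44), TYE7 (1.11), ECM22 (1.02) and ZDS1 (0.92). Its lowest were in SNF5 (-1.72), HFI1 (-1.27), GCR2 (-1.21), SIN3 (-1.14) and TDA9 (-1.03). With the length trend removed the distance of CRS5 from its median went from 1.21 to -0.20 in TYE7, whose trend was -0.45. In SIN3 it went from -1.04 to -0.21. In MSN4, TUP1 and SNF5 it was 2.06, 1.75 and -1.75 with the trend removed. TUP1, which lacks a general corepressor, was among the highest for CRS5 and among the lowest for both CUP1 copies.

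SOD1 ran from -6.41 to 3.01 with a median of -0.11, with 9 strains more than 2 below that median and 17 above. It was lowest in GCR1 (-6.41) and RAP1 (-5.92), whose products drive glycolytic and ribosomal protein genes, followed by HFI1 (-3.91), ABF1 (-3.86) and REB1 (-3.29). All of these but HFI1 are columns with few digits, and the part of that difference in these values was not tested. The highest scores were in TYE7 (3.01), HAP2 (2.89), ESC2 (2.62), ISW2 (2.55) and SPT4 (2.49). Each of these 5 columns had a negative correlation between score and gene length, from -0.58 in HAP2 to -0.32 in ESC2, and the ESC2 column had low strain markers.

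Counted together, 239 of the 1845 values of the 7 genes lay more than 2 from the gene's median over strains, or 13%. Over all genes and strains that share was 3.03%. The count was uneven: 28.4% of FRE1 values, 21.4% of CUP1-1, 18.7% of CUP1-2, 9.74% of FRE7, 9.70% of SOD1, 1.65% of CTR1 and no CRS5 value. In 52.6% of strains no copper gene was that far from its median, in 34 strains at least 3 were, and in 13 strains at least 4. SNF6 and SPT4 each had 5. They were opposite in 4 of those 5 genes: relative to the gene medians, FRE7 stood at 3.71 without SNF6 and at -2.81 without SPT4, CUP1-1 at -2.53 and 4.06, CUP1-2 at -3.16 and 3.28, and SOD1 at -2.14 and 2.60. FRE1 was low in both, at -4.32 and -3.82. The SPT4 column had a length trend of -0.56, and with the trend removed CUP1-1 stood at 2.11, CUP1-2 at 1.35 and SOD1 at 1.42 there. All 5 genes of SNF6 stayed beyond 2 without the trend. Neither column showed its own gene among the lowest scores, as 37 strains were lower at SNF6 and 79.4% of the other strains at SPT4.

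The deletion of MAC1 addresses the activator of the uptake genes, but its column did not show the loss of MAC1 RNA. MAC1 scored 0.02 in the column labelled MAC1, above 69.7% of the 267 other strains. UBC7, the next gene on the chromosome and a ubiquitin-conjugating enzyme, scored -5.76 there, below all 267 other strains, the lowest of which stood at -2.38. FMS1, the next gene on the other side, scored 0.56 against a median of -0.32, and MSS1, beyond UBC7, scored 0.13 against a median of 0.17. Which gene the strain lacked was not tested, and the values below are those of the column labelled MAC1.

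In that column none of the 7 copper genes lay more than 2 from its median, where 2.39% of all genes did. FRE1 scored -2.41, the 88th lowest of 268 strains, FRE7 -1.48, above 43.2% of the other strains, and CTR1 0.82, the 44th highest of 242. The uptake genes thus lay inside the bulk of strains, with FRE1 1.17 below its median and CTR1 0.48 above. Among the buffering genes CUP1-1 scored 0.07, CUP1-2 -0.43, CRS5 0.18 and SOD1 1.72, the 23rd highest. Of the 19 other copper genes measured, which cover transporters, chaperones, copper enzymes and regulators, none was beyond 2, and their median distance from their own medians was 0.29 against 0.05 for all genes. Of 13 iron uptake genes 2 were beyond 2, both high.

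The genes farthest above their medians in the column labelled MAC1 were HSP30 (5.95), TPO2 (5.71), TSL1 (4.22), CIP1 (4.24) and GSY1 (4.33). HSP30 encodes a membrane heat shock protein, TPO2 a polyamine exporter, TSL1 a subunit of trehalose synthesis and GSY1 glycogen synthase. After UBC7, those farthest below were the phosphate transporter gene PHO89 (-3.72), YMR050C (-4.27), YLR227W-A (-4.02) and YGR027W-A (-3.24), the last 3 being reading frames of Ty elements.

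The column labelled CUP2 did show its own deletion, since CUP2 scored -3.95, below all 267 other strains. It held 1 copper gene beyond 2, SOD1, and 2.02% of all genes. SOD1 was high, at 2.03, the 12th highest of 268. The metallothionein genes split: CUP1-1 scored 0.49 and CUP1-2 -0.09, both above their medians by 1.42 and 0.56, and CRS5 scored -0.76, the 16th lowest of 266. FRE7 scored 0.03, the 38th highest of 267, FRE1 -1.53 and CTR1 0.34. None of 19 other copper genes and none of 13 iron genes was beyond 2.

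HSP30 (6.58), TSL1 (5.44), GSY1 (5.10) and TPO2 (5.57) were among the 5 genes farthest above their medians in the CUP2 column too, with AIM17 (3.61) as the fifth. Those farthest below were YPR099C (-4.13), YGR027W-A (-3.01), RIP1 (-2.39), ORT1 (-2.61) and PEX14 (-2.15). The score fell with gene length in both columns, with correlations of -0.29 for MAC1 and -0.35 for CUP2, and both CUP1 copies and SOD1 are short genes. In the CUP2 column the distances from the median were 2.14 for SOD1, 1.42 for CUP1-1, 0.56 for CUP1-2 and -0.66 for CRS5. With the length trend removed they were 1.64, 0.56, -0.29 and -1.5, so that no copper gene was beyond 2 and CUP1-2 changed side. The sources used here do not say whether the columns share a wild type sample.

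Other regulators of metal and stress genes differed in which copper genes moved. Without HAA1, an activator related to Cup2, no copper gene was beyond 2, where 2.11% of all genes were. SOD1 scored 1.89 there and lay 1.998 above its median, just short of 2. Without the iron regulator AFT1, 2 of 7 were beyond 2, against 5.19% of all genes: FRE7 at 0.83, the 15th highest of 267, and CUP1-1 at -3.14, the 21st lowest of 266. FRE1 scored 0.03 in the AFT1 column, the 65th highest of 268, while 5 of 13 iron uptake genes lay more than 2 below their medians and 2 above. Without AFT2, the paralog of AFT1, CUP1-1 alone was beyond 2, at -3.09, against 0.884% of all genes, and FRE7 was the 16th lowest at -2.99. The distance of CUP1-1 from its median was -2.2 in both columns. With the length trend removed it was -1.84 in AFT1 and -1.66 in AFT2, so neither was beyond 2.

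In the column labelled HSF1, the heat shock regulator, 4 of 7 copper genes were beyond 2, where 14.9% of all genes were. Both CUP1 copies were the second lowest of all strains, SOD1 scored -2.61, the 7th lowest, and FRE7 0.82, the 16th highest. This was a column with few digits, and HSF1's own score was -0.84, with 29 strains lower. SOD1 was also low without YAP1 (-2.46, the 8th lowest) and SKN7 (-1.75, the 17th lowest), which encode oxidative stress regulators, and without the zinc regulator ZAP1 (-2.06, the 10th lowest). YAP1 had 1 copper gene beyond 2, against 1.09% of all genes, and SKN7 and ZAP1 had none, against 1.11% and 1.46%. SOD1 stood at -1.95 from its median in ZAP1, and at -2.06 with the length trend removed, beyond 2. None of these 3 columns showed its own gene among its lowest scores, with 46 strains lower at YAP1, 87 at ZAP1 and 65.5% of the others at SKN7.

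Strains that lack subunits of one complex were grouped into 7 sets and each set was compared with all other strains but the 36 that belong to a set or are the named regulators above. Each strain of a set is another genotype with 1 column, so a p-value measures the spread between strains and not between repeats of a strain. That spread was pooled over all groups, so an SE reflects mostly the other strains and not the set's own spread. CUP1-1 had an SD of 3.68 in the Rpd3L set against 1.65 in the other strains. CUP1-2 had 2.57 in the SWI/SNF set against 1.54. All tests used limma on the scores of all genes, with adjusted p-values by Benjamini-Hochberg over all genes of a comparison. Of 49 tests of a copper gene in a set, with the CUP1 copies counted separately, 6 passed an adjusted p of 0.05.

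Without SWI/SNF subunits, FRE1 and both CUP1 copies fell and FRE7 rose. FRE1 scored -6.12 in SNF2, -5.83 in SWI3, -5.57 in SNF6, -5.01 in SNF5 and -1.52 in SNF11, all below the median of the other strains. The set differed from the other strains by -3.47 ± 0.77 (SE, n = 5 strains, limma adjusted p = 9.66e-05). FRE7 scored 2.47 in SNF6, 2.13 in SNF2, 0.37 in SWI3, -0.54 in SNF11 and -0.70 in SNF5. All 5 exceeded the other strains' median, and the difference was 1.90 ± 0.57 (SE, limma adjusted p = 0.00457). The reductase genes thus moved in opposite directions in this set.

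CUP1-1 scored -4.72 in SNF2, -4.42 in SWI3, -3.57 in SNF5, -3.46 in SNF6 and -0.01 in SNF11, and CUP1-2 scored -4.51, -4.88, -4.77, -3.80 and 1.18 in the same strains. In 4 of 5 strains both copies were far below the other strains, while SNF11 was not. The differences were -2.49 ± 0.75 for CUP1-1 (SE, limma adjusted p = 0.00541) and -2.86 ± 0.71 for CUP1-2 (SE, limma adjusted p = 0.0006). CTR1, CRS5 and SOD1 did not pass, with differences of -0.50, -0.09 and -0.97. So 4 of 7 copper genes passed, with the CUP1 copies, which cannot be read as separate genes, counted separately. In this set 32.8% of all genes passed, and 4 of 5 strains had their own gene low, among the lowest 5% of its scores over strains.

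The FRE7 call in this set was lost without SNF2 (adjusted p = 0.0549) or without SNF6 (adjusted p = 0.0745), by limma. With quantile normalization of the columns the FRE1, CUP1-1 and CUP1-2 differences shrank to between -0.79 and -0.64, and FRE7 alone passed, at 1.90 (limma adjusted p = 0.0275).

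Of the 20 other copper genes, 7 passed the test in the SWI/SNF set, 2 higher and 5 lower, in a set where 32.8% of all genes passed. The lower ones were IRC7 (-4.78 ± 0.66) and REE1 (-1.82 ± 0.55), both reported targets of Mac1, the multicopper ferroxidase gene FET3 (-2.75 ± 0.67), BSD2 (-1.23 ± 0.46), which sends metal transporters to the vacuole, and the metal pump gene PCA1 (-0.98 ± 0.23). The higher ones were the regulator genes HAA1 (1.16 ± 0.35) and CUP9 (1.02 ± 0.36). HAA1 alone of the 7 passed with quantile normalization. HAA1 lost the call without SNF2, and BSD2 and CUP9 lost it without SWI3, SNF5 or SNF6, BSD2 also without SNF2. The median difference of the 7 copper genes was -0.97 and that of the 20 others -0.12, against -0.07 over all genes.

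Without SAGA subunits, a coactivator that acetylates histones, FRE1 and SOD1 fell. FRE1 scored -5.76 in SPT20, -4.49 in HFI1, -3.51 in SPT3, -2.71 in ADA2 and -1.74 in NGG1, all below the median of the other strains. The difference was -2.31 ± 0.77 (SE, n = 5, limma adjusted p = 0.0348). SOD1 scored -3.91 in HFI1, -2.83 in SPT20, -1.31 in SPT3, -1.21 in NGG1 and 0.61 in ADA2, with a difference of -1.76 ± 0.55 (SE, limma adjusted p = 0.0241). SPT20 and HFI1 were the lowest strains for both genes, and FRE7, which did not pass, was highest in the same 2 strains, at 1.39 and 1.37.

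Thus 2 of 7 copper genes passed in the SAGA set, where 10.3% of all genes did. By limma, both calls were lost without SPT20 (adjusted p = 0.348 for FRE1 and 0.253 for SOD1) and without HFI1 (0.194 and 0.347), and FRE1 also without SPT3 (0.0788), while CRS5 passed without NGG1. The SPT20 column had chromosome I displaced and the SPT3 column low strain markers. In 1 of 5 SAGA columns was the strain's own gene low. Of the 20 other copper genes 3 fell here, IRC7 (-2.75 ± 0.66), REE1 (-2.35 ± 0.55) and CCS1 (-1.39 ± 0.42), the copper chaperone of Sod1. None of these 3 passed with quantile normalization, at -1.12, -1.45 and -0.40. IRC7 lost the call without SPT20, REE1 without HFI1, and CCS1 without SPT3, SPT20 or HFI1, without the low-marker columns and with array weights.

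**Figure D2:**
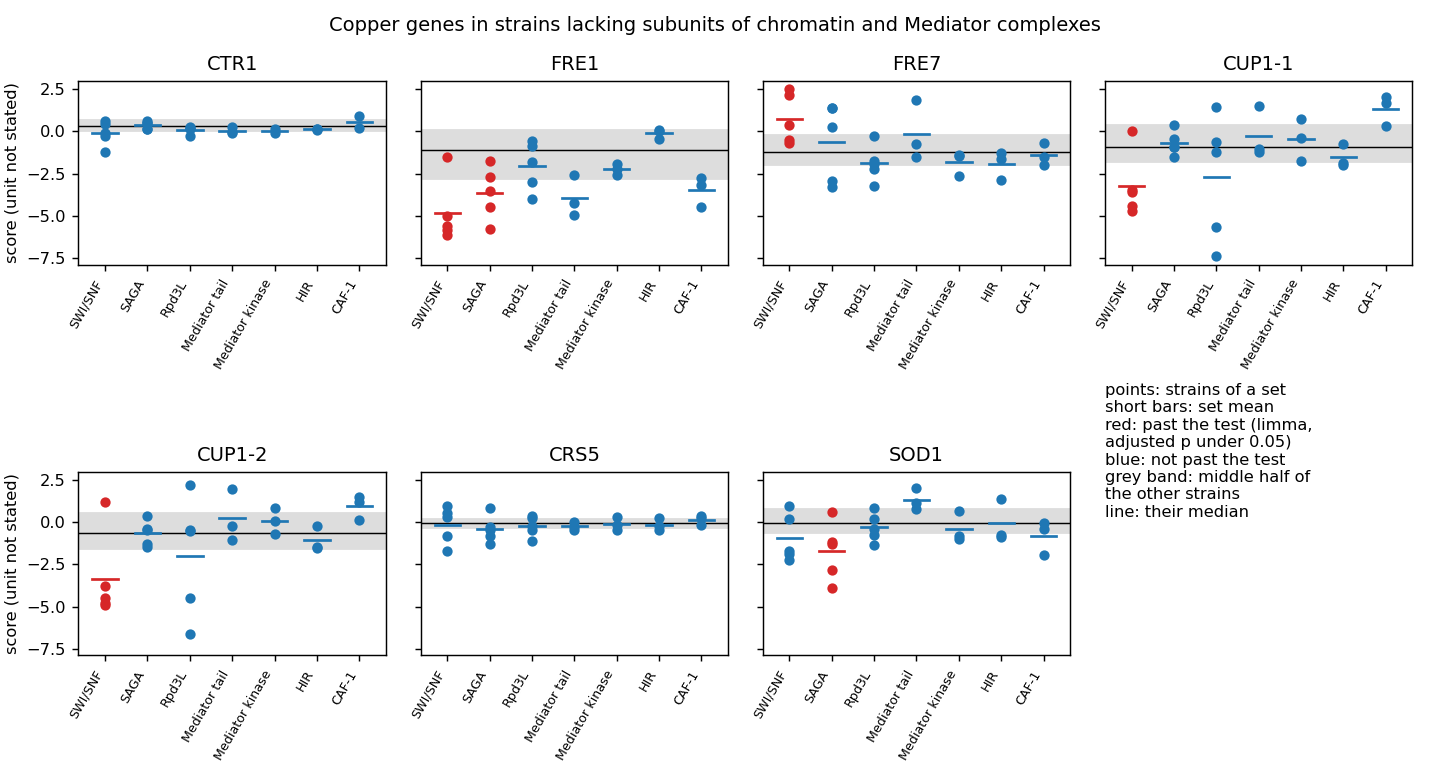
Scores of each copper gene by strain set, with 1 point per strain, a bar at the set mean, and the middle part and median of the other strains in grey and black. Red marks the 6 pairs of gene and set past the test, and for FRE1, CUP1-1 and CUP1-2 the topmost SWI/SNF point is SNF11 (-1.52, -0.01 and 1.18).

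No copper gene passed the limma test in the other 5 sets. In the Rpd3L deacetylase set 0.392% of all genes passed, and 428 of 5615 had an unadjusted p under 0.05 by limma. The same held for 2 of 7 copper genes. Both were CUP1 copies, and the strains were widely apart: CUP1-1 scored -7.38 in SIN3, -5.65 in UME1, -1.25 in PHO23, -0.63 in RPD3 and 1.45 in SDS3. The difference was -1.95 ± 0.75 (SE, limma adjusted p = 0.361).

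In the Mediator tail set, where 8.23% of all genes passed, FRE1 scored -4.94 in PGD1, -4.22 in GAL11 and -2.60 in SIN4, with a difference of -2.58 ± 0.99 (SE, n = 3, limma adjusted p = 0.0823). It was the 1 of 7 copper genes with an unadjusted p under 0.05 by limma there, where 1265 of 5615 genes had one. FRE1 passed when columns were weighted by their quality. The vacuolar copper transporter gene CTR2 was higher, by 1.56 ± 0.41 (limma adjusted p = 0.00816), and with the length trend removed by 0.98 (adjusted p = 0.143). That call was also lost without SIN4 and with quantile normalization (adjusted p = 0.0977).

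In the set of CAF-1, which assembles nucleosomes behind the replication fork, 2.69% of all genes passed. CUP1-1 scored 2.04 in CAC2, 1.65 in RLF2 and 0.31 in MSI1, all above the other strains' median, with a difference of 2.08 ± 0.97 (SE, n = 3, limma adjusted p = 0.342). FRE1 scored -2.76 in CAC2, -3.18 in RLF2 and -4.44 in MSI1, with a difference of -2.12 ± 0.99 (limma adjusted p = 0.342). Both had an unadjusted p under 0.05 by limma, as did 666 of 5612 genes, and both passed when columns were weighted by their quality. Among the 20 other copper genes CTR3, a copper transporter gene, rose by 1.25 ± 0.31 and REE1 fell, at -2.38 ± 0.71. The REE1 call (limma adjusted p = 0.04) was lost without any 1 of the 3 strains and with the length trend removed (0.057), and that of CTR3 without CAC2 or RLF2.

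In the Mediator kinase set 0.0178% of all genes passed and no copper gene had an unadjusted p under 0.05 by limma. The same held in the set of the histone chaperone HIR, where 0.0% of all genes passed and 364 had an unadjusted p under 0.05. FRE1 scored -0.43, 0.04 and 0.07 in the HIR strains, above the other strains' median in all 3. CTR1 had no value in SSN3, UME1 and MSI1.

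The uptake and the buffering genes were then set against each other, strain by strain, as the median distance of each group from its gene medians. In the 26 columns without a CTR1 value the uptake median rests on FRE1 and FRE7 alone. Over 268 strains the Spearman correlation between the groups was -0.19. The groups fell on opposite sides in 69 strains with uptake high and buffering low and 73 with the reverse, and on the same side in 60 strains high and 66 low. Opposite movement was therefore little more frequent than joint movement. The column labelled CUP2 and the column labelled MAC1 both lay near the middle of the plot of uptake against buffering.

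Single strains stood far out. Uptake minus buffering was lowest without SPT4 (-5.75), a transcription elongation factor, and then without GLN3 (-4.36), CUP9 (-4.27), TAF14 (-4.06) and ISW2 (-3.80). The columns of GLN3 and TAF14 had low strain markers, and those of SPT4, CUP9, TAF14 and ISW2 had length trends from -0.56 to -0.33. Cup9 is a repressor named for a copper sensitivity of its mutant, and its column showed its own gene at -7.19, below all other strains. FRE1 scored -4.99 there, FRE7 -1.39, CUP1-1 2.49, CUP1-2 2.55, CRS5 0.03 and SOD1 1.33. CTR1 had no value in the CUP9, TAF14 and YGR067C columns, so uptake there is FRE1 and FRE7 alone. The difference was highest without TUP1 (4.57), RIM101 (4.13), RCO1 (3.61), STP1 (3.53) and YGR067C (3.27). TUP1 and RIM101 got there by different genes: TUP1 had FRE7 at 2.03, CTR1 at 1.94 and both CUP1 copies under -5, but FRE1 at -4.76, whereas RIM101 had FRE1 and FRE7 high and CUP1-1 at -1.14.

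**Figure D3:**
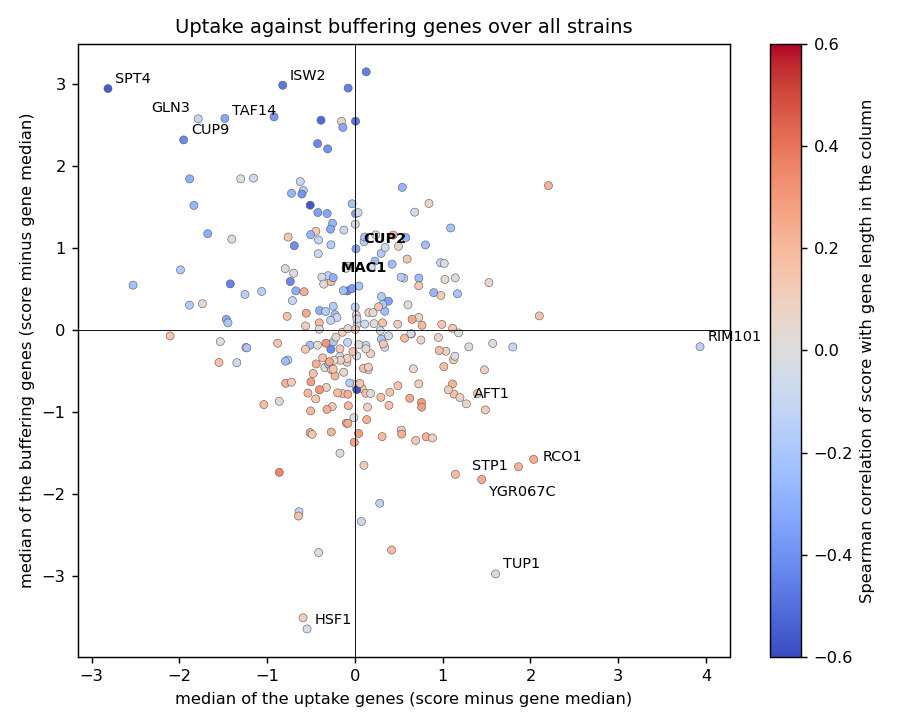
Median distance of the uptake genes (horizontal) and of the buffering genes (vertical) from their gene medians, 1 point per strain, coloured by the correlation of score with gene length in that column. The cloud has a Spearman correlation of -0.19; blue points, with a negative length trend, lie mostly in the upper part.

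The length trend moved with this contrast. The genes for buffering are short, at most the 465 bases of SOD1, and those for uptake range from 1221 for CTR1 to 2061 for FRE1, against a median of 1272 for all genes (lengths are those of the reference, nearly all coding lengths). Across columns the buffering median had a Spearman correlation of -0.64 with the column's length trend, the uptake median 0.22, and their difference 0.58. Single genes differed: the correlation with the length trend was -0.70 for SOD1, -0.57 for CUP1-1, -0.56 for CUP1-2, 0.46 for FRE1, 0.15 for CRS5, -0.10 for CTR1 and -0.03 for FRE7. The part of the trend in each result was not tested beyond the values with the trend removed.

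In the 89 columns with the most negative length trend the median score of FRE1 was -2.71, that of CUP1-1 0.05 and that of SOD1 1.09. In the 90 columns with the most positive trend they were -0.34, -1.86 and -0.78. With the columns in 3 parts from the most negative to the most positive trend, the correlation of uptake with buffering was -0.17, -0.08 and -0.09. With the trend removed the strains named lowest above changed order. Uptake minus buffering was -3.98 without GLN3, -3.72 without SPT4, -3.10 without TAF14, -2.98 without CUP9 and -1.94 without ISW2. TUP1 and RIM101 stood at 4.52 and 4.40. Other strains then lay among the low ones: RPN4, which has no CTR1 value, had uptake at -1.37 and buffering at 1.99. ARO80, with uptake at -1.74 and buffering at 1.14, lay below ISW2.

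**Figure D4:**
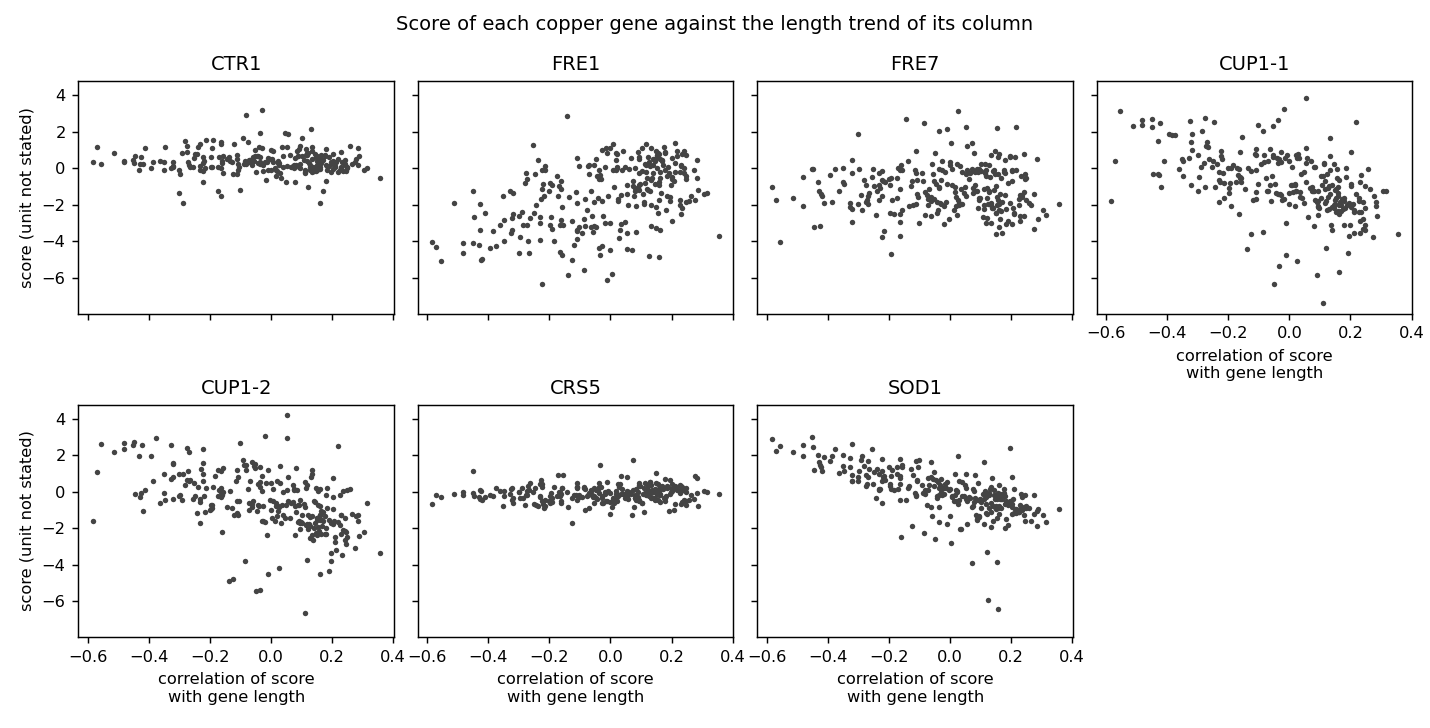
Score of each copper gene (vertical) against the Spearman correlation of score with gene length in the same column (horizontal), 1 point per strain. SOD1 and both CUP1 copies fall along the axis, FRE1 rises, and CTR1, FRE7 and CRS5 show a correlation between -0.10 and 0.15.

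Gene by gene, the members of a group did not move as one. Among the uptake genes the Spearman correlations over strains were 0.05 for CTR1 with FRE1, 0.05 for CTR1 with FRE7 and 0.05 for FRE1 with FRE7. FRE1 and FRE7 were both low in 2 strains and both high in 4, and in 5 strains FRE1 was low and FRE7 high. In the buffering group CUP1-1 and SOD1 had a correlation of 0.48, which was 0.20 with the length trend removed. CRS5 had -0.03 with CUP1-1 and -0.13 with SOD1, which were -0.28 and -0.52 with the trend removed.

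Across the groups FRE1 and the CUP1 copies had the most negative correlations, -0.37 with each copy, and -0.29 and -0.28 with the length trend removed. FRE1 was low while CUP1-1 was high in 16 strains, high while CUP1-1 was low in 4, low together in 6 and high together in 1. Within the same 3 parts of the columns the correlation of FRE1 with CUP1-1 was -0.13, -0.21 and -0.23. All these points share the same columns, and correlations are given as descriptions.

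**Figure D5:**
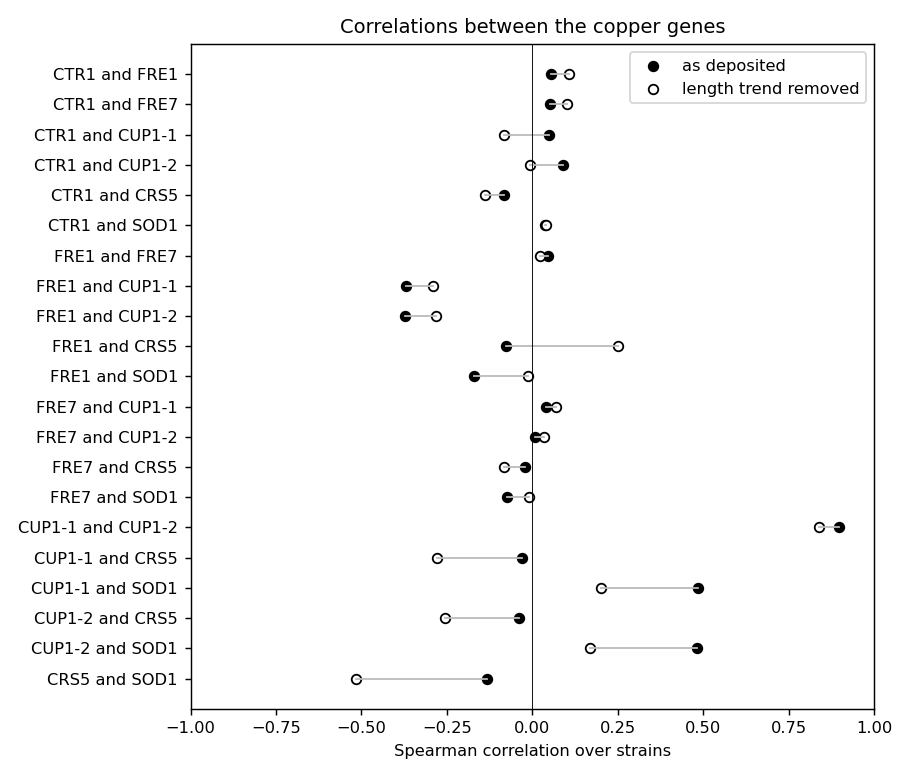
Spearman correlation over strains for each of the 21 pairs of copper genes, with filled circles for scores as deposited and open circles after removal of the length trend. The CUP1 copies stand at 0.90, FRE1 with either copy at -0.37, and pairs with SOD1 or CRS5 shift most.

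The genes most like each member over strains also differed. For FRE1 they were FET3 (0.74), the ferroxidase of iron uptake, the siderophore transporter gene ENB1 (0.73), IRC7 (0.72), HMG1 (0.66) of sterol synthesis and PFK2 (0.66) of glycolysis. Of 13 iron uptake genes 7 had a correlation above 0.5 with FRE1, with a median of 0.53, and of 20 other copper genes 4 had, FET3, FET4, IRC7 and REE1, with a median of -0.15. FET3 is on both lists. With the length trend removed the medians were 0.50 for the iron genes and -0.03 for the copper genes. How many of all genes had a correlation above 0.5 with FRE1 was not counted, so both counts lack a background. For no other member was any iron gene above 0.5.

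For CUP1-1, after CUP1-2, they were VMA7 (0.74), RPB10 (0.73), ZEO1 (0.72) and TIF11 (0.70), and for CUP1-2 they were VMA7 (0.73), RPB10 (0.73), ZEO1 (0.70) and RPL35B (0.70). VMA7, RPB10, ZEO1 and TIF11 are short, at most 462 bases, and their correlations with CUP1-1 were 0.58 to 0.62 with the length trend removed. For SOD1 all 5 were ribosomal protein genes: RPS29A (0.79), RPL26A (0.79), RPP1A (0.77), RPL14B (0.77) and RPS15 (0.77), each between 0.67 and 0.71 with the trend removed.

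CTR1 and FRE7 had no close companion. The 5 genes most like CTR1 were FAP7, NCE102, MFA2, TIF4632 and PTH2, at 0.32 to 0.34, and those most like FRE7 were SOR1 (0.34), CRR1 (0.29), FIS1 (0.28), YRF1-3 (0.27) and SPP2 (0.26). For CRS5 they were CMR2 (0.53), BNI4 (0.51), HST1 (0.49), MUK1 (0.47) and MAK5 (0.46), which with the trend removed ran from 0.21 to 0.38. With the trend removed the 5 most like CRS5 were others: YER039C-A (0.67), YOR302W (0.66), MF(ALPHA)2 (0.64), RIM9 (0.64) and YML100W-A (0.64). None of the 7 was among the 5 most alike of another, apart from the CUP1 copies.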

How the data were processed

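The authors' deposited table gave a signed score per feature and strain; per the labels it is deletion strain (Cy5) over wild type (Cy3), and the sources used here do not give its normalization, its log base or the arrays behind a column. Although the plan took log ratios for granted, limma was applied to the score, which was signed and spread around 0. No signal above background was available, and the number of columns limits the precision. Of 6419 features, 5655 matched a gene of the reference (assembly R64, used for names, lengths and neighbours), and 5615 with a value in at least 80% of columns were tested, with 1.25% of values missing.

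Scores of a gene in the column of its own deletion were left out. Sets were compared with all but 36 strains (limma 3.58.1, R 4.3.3). Single columns were described by the distance of a score from the gene's median, counted beyond 2, with no test. On simulated scores, checked first, the script recovered the added shifts. Alternatives were quantile normalization, other filters, columns or strains left out and array weights. Removal of a lowess trend on gene length, and leaving out set strains whose own gene was not low, were chosen after seeing the data, as were the thresholds for strain markers (-3) and displaced chromosomes (0.8).

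The members, lists and sets were chosen with earlier results of these data known. Named were the 7 members, their 5 highest and 5 lowest strains, their 5 most correlated genes, the 5 genes farthest above and below their medians in the MAC1 and CUP2 columns, and listed copper genes past a test; other strains and neighbours of MAC1 and CUP1 were named after their values were seen.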

Additional observations from a re-analysis of the deposited data

Results flagged for a closer look

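In the SWI/SNF set the strain SNF11 stood apart from the other 4 strains. It scored -1.52 for FRE1, where the others lay between -6.12 and -5.01, and -0.01 for CUP1-1, where the others lay between -4.72 and -3.46. For CUP1-2 it scored 1.18, where the others lay between -4.88 and -3.80. In each case the gap between SNF11 and the nearest strain took up more of the set's range (0.76, 0.73 and 0.82) than Dixon's criterion allows. Of 21 groups of strain set and gene tested in this way 3 stood out, all of them SNF11, and CUP1-1 and CUP1-2 are near-identical genes; chance marks about 1 in 20. SNF11's own score in its column was -1.67, with 13 strains lower.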

How the results depend on the processing

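No paired analysis was possible because each deletion had 1 column and the labels give no replicate numbers shared between strains. Of the 6 copper gene and set pairs past the test, 1 (FRE7 in SWI/SNF) remained with quantile normalization, where 1 pair in all passed. In the other alternatives, apart from the one that left HFI1 alone in the SAGA set, 4 to 6 of these 6 remained. With 1 strain left out, only the set that lost it was refitted, and the calls of the other sets were carried over. Of the 4 SWI/SNF pairs FRE7 alone was lost, without SNF2 or without SNF6. Both SAGA pairs were lost without SPT20 or without HFI1, and FRE1 without SPT3. Without NGG1 both SAGA pairs remained and CRS5 was gained. With array weights 7 passed, 4 of the 6 and 3 new ones. No difference reversed in 78 refits of the 6 pairs, and 20 lost the threshold; the cause was not tested. The SAGA calls were lost without the low-marker columns (limma adjusted p = 0.0534 for FRE1 and 0.0582 for SOD1). They were also lost without displaced-chromosome columns (0.329 and 0.221) and with array weights (0.0845 and 0.176). Without set strains whose own gene was not low, the FRE7 call in SWI/SNF was lost (limma adjusted p = 0.0676). That refit left HFI1 as the only SAGA strain, with differences of -3.15 for FRE1 and -3.93 for SOD1. Both are counted among the 78 refits. The column labelled MAC1 held 1 copper gene beyond 2 when scores were taken as deposited and 3 beyond 1, where 16.5% of all genes were. The CUP2 column held 0 with quantile normalization, 0 with the length trend removed and 3 beyond 1, where 15.8% of all genes were. Beyond 1 were 696 values of the 7 genes, or 37.7%, against 16.6% over all genes and strains. The correlation of uptake with buffering ran from -0.26 to -0.15 over its alternatives. Columns without replicates leave single scores without an error.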
